A study of Mus musculus with 2 samples.

Results

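The ETS family genes that act in the making and keeping of endothelium, here Erg, Fli1, Etv2, Elk3 and Etv6, were followed through 2 peak lists from cultured mouse aortic endothelial cells. The 5 genes were chosen by their known roles, though with earlier results of these data known. They stand among 21887 protein-coding genes on chromosomes 1 to 19, X and Y. For each, every peak over the RefSeq span of the gene and 50 kb on either side was taken, on the mm10 build. One list came from an antibody against ETS1 and the other from an antibody against ETS2, both used on wild-type cells. The culture medium held 20% serum together with heparin and a growth supplement for endothelial cells. Each immunoprecipitation used 10 µg of antibody, and each antibody has 1 library. Strain, age and sex of the mice are not stated in the labels, and peak lists carry no expression with which the cell type could be checked. With 1 library per antibody no difference between the antibodies was tested, and no control library was used here. Intervals are 95% and cover counting error only, although neighbouring peaks of a library are not independent of each other.

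ETS proteins share a winged helix-turn-helix DNA-binding domain, the ETS domain, that reads a GGAA core, so ETS1 and ETS2 can meet sites that other family members also recognise. ERG and FLI1 are close relatives that keep endothelial genes active in mature vessels. ETV2 is switched on briefly in the embryo and starts the endothelial and blood programme from mesoderm. ELK3 (also called NET) is a ternary complex factor that joins serum response factor and represses until ERK phosphorylates it. ETV6 (also called TEL) is a repressor that polymerises through its pointed domain and is needed for yolk sac vessels and blood stem cells.

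The libraries were deep and similar in size, with 143778022 tags and 77295 peaks for ETS1 and 134607908 tags and 63556 peaks for ETS2 per the file headers. A peak needed at least 30 tags in both, beside 12.7 (ETS1) and 12.5 (ETS2) expected by chance. Peaks held 1.89% (ETS1) and 1.53% (ETS2) of all tags. The mean per peak was 35.1 and 32.4 tags, not far above that threshold. The lists were uneven over the chromosomes on which the 5 genes lie. Chromosome 6, with Etv6, held 6.70% of the ETS1 and 24.4% of the ETS2 list, and chromosome 10, with Elk3, 7.99% and 11.2%. Chromosome 7, with Etv2, held 1.49% and 4.13%, chromosome 9, with Fli1, 6.13% and 4.36%, and chromosome 16, with Erg, 4.65% and 2.51%. Each gene is therefore set beside protein-coding genes on its own chromosome with a length within 1.5 times its own, and chromosome and gene cannot be told apart when the 5 are set beside each other.

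The DNA just before the annotated transcription starts is shown first, because the nearest peaks sit at different distances from these starts. The RefSeq promoter table of GRCm38.p6 matched 4 of the 5 genes, with 3 starts for Erg and 1 each for Etv2, Elk3 and Etv6. Fli1 had no entry. The 250 bases before a start are printed 5′ to 3′ on the strand of the gene, with each GGAA, or TTCC on that strand where the core lies on the other strand, in capitals. Erg is shown at its outermost start and at its innermost start, beside which both lists had a peak.
Erg outermost start, chr16:95586594-95586843, minus strand: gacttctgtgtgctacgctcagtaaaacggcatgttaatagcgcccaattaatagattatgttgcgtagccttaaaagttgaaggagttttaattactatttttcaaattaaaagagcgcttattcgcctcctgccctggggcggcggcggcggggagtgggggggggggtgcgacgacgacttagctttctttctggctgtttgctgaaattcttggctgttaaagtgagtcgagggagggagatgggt
Erg innermost start, chr16:95459349-95459598, minus strand: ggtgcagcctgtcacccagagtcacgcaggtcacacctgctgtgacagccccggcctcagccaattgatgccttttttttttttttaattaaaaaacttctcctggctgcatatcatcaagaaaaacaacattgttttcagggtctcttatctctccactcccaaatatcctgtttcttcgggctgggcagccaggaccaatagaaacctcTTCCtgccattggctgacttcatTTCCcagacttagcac
Etv2 start, chr7:30635853-30636102, minus strand: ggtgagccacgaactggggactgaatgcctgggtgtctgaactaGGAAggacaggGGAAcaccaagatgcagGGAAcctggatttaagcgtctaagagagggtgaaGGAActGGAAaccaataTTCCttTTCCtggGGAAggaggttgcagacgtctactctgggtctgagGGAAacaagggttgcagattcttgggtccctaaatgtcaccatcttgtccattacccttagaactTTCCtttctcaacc
Elk3 start, chr10:93311160-93311409, minus strand: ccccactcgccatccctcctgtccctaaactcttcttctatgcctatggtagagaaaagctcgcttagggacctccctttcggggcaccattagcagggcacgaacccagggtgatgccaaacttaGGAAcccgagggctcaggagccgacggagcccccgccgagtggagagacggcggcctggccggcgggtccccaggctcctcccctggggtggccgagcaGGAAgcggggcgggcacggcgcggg
Etv6 start, chr6:134035450-134035699, plus strand: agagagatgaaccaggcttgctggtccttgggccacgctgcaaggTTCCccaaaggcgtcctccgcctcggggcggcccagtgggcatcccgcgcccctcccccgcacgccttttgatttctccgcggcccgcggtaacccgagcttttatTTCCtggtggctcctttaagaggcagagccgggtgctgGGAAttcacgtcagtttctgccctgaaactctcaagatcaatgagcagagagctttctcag

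Etv2 stood apart in these letters. Its 250 bases held 10 GGAA cores, a number reached by 0.192% of all 32851 promoters in the table, whose median was 3. This window lies before the tabled start but inside the annotated span of Etv2, which reaches up to 30636509. The Etv6 window held 3, the Elk3 window 2 and the innermost Erg window 2, while the outermost Erg window held 0, as did 6.55% of promoters. The middle Erg start, not printed, had 4. At least 1 GGAA was found in 93.5% of all promoters on either strand, so the core by itself separates few genes. Longer forms that contain the core were rarer: AGGAAG occurred once each in the Etv2, Elk3 and innermost Erg windows, beside 29.5% of promoters, and neither CCGGAA (12% of promoters) nor GGAAGT (19.7%) occurred in any of the 6 windows. No peak of either list overlapped any of the 6 windows, so none of these letters lay under a peak.

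Starts of the 4 genes differed in how near the peaks came. A peak centre lay within 1 kb of 2 of the 6 starts in the ETS1 list, beside 37.2% of 21263 starts of protein-coding genes, and of 4 of the 6 in the ETS2 list, beside 39.2%. At Etv6 both were close, at 465 bp (ETS1) and 467 bp (ETS2) downstream of the start. At the innermost Erg start they lay 436 bp (ETS1) and 543 bp (ETS2) downstream. The outermost Erg start had its ETS2 peak at 919 bp and its ETS1 peak at 1172 bp, both downstream. The middle Erg start had its ETS2 peak 2693 bp and its ETS1 peak 16700 bp upstream. Elk3 had an ETS2 peak 950 bp downstream and no ETS1 peak nearer than 4120 bp. At Etv2 the nearest were 10095 bp (ETS2) and 14173 bp (ETS1) away. The medians over all starts were 5663 bp (ETS2) and 5912 bp (ETS1), so that Etv2 lay beyond both and the middle Erg start beyond the ETS1 median. Counted at either end of the gene, so that Fli1 could be included, an ETS1 peak lay within 1 kb at 2 genes (Fli1 and Etv6) and an ETS2 peak at 3 (Erg, Elk3 and Etv6). Of all protein-coding genes, 39.4% and 40.0% had such a peak. Read against those shares, neither count of 5 sets the members apart from other genes.

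**Figure D1:**
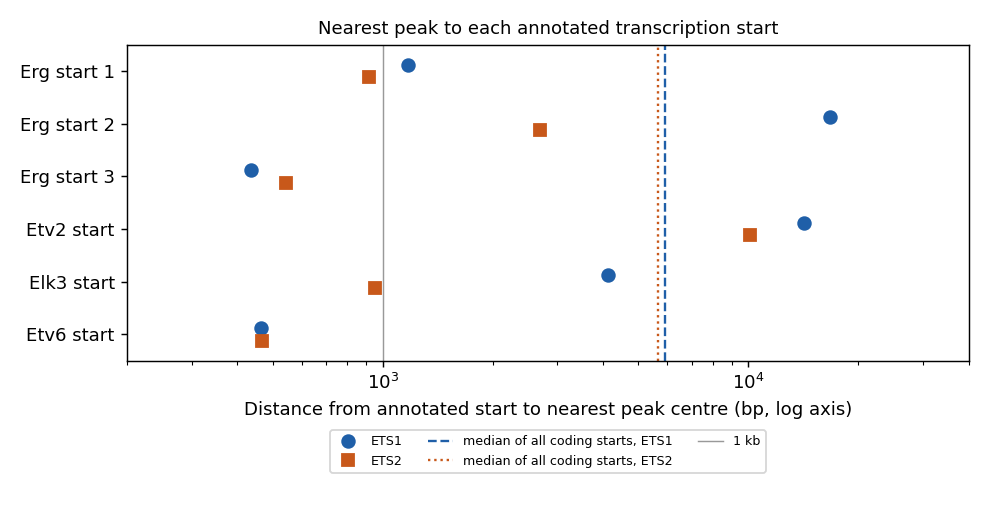
Distance in bp (log axis) from each annotated transcription start of Erg, Etv2, Elk3 and Etv6 to the nearest ETS1 (circle) and ETS2 (square) peak centre. Erg start 1 is the outermost and start 3 the innermost. Vertical lines mark 1 kb and the median distance over all starts of protein-coding genes. The Etv2 points and the ETS1 point of Erg start 2 lie to the right of both medians, and those of Etv6 and Erg start 3 lie below 1 kb in both lists.

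Over the 5 loci the ETS1 list held 75 peaks and the ETS2 list 146, and 15 of each overlapped a peak of the other list by at least 1 bp. All 5 genes had at least 1 peak of each list in the window, as did 78.8% (ETS1) and 77.8% (ETS2) of all protein-coding genes. An overlapping pair was present at 3 of the 5 (Erg, Elk3 and Etv6), beside 52.6% of all genes. Ordered by ETS1 peaks per 100 kb, Elk3 had 12.2 (7.46 to 18.9, exact Poisson interval), Etv6 8.07 (5.32 to 11.7), Erg 7.64 (4.94 to 11.3), Etv2 0.972 (0.0246 to 5.42) and Fli1 0.904 (0.110 to 3.27). The intervals of Elk3, Etv6 and Erg overlap, as do those of Etv2 and Fli1. The interval of Etv2, which rests on 1 peak, also reaches those of Etv6 and Erg, while that of Fli1 stays below all 3 of the denser genes. By ETS2 peaks per 100 kb the order was Elk3 at 25.6 (18.5 to 34.7), Etv6 at 24.8 (19.8 to 30.8), Etv2 at 3.89 (1.06 to 9.95), Fli1 at 3.62 (1.56 to 7.12) and Erg at 2.75 (1.26 to 5.22). Elk3 and Etv6 stood above the other 3 without overlap, on the 2 of these 5 chromosomes that held most ETS2 peaks, while Etv2, Fli1 and Erg could not be separated.

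**Figure D2:**
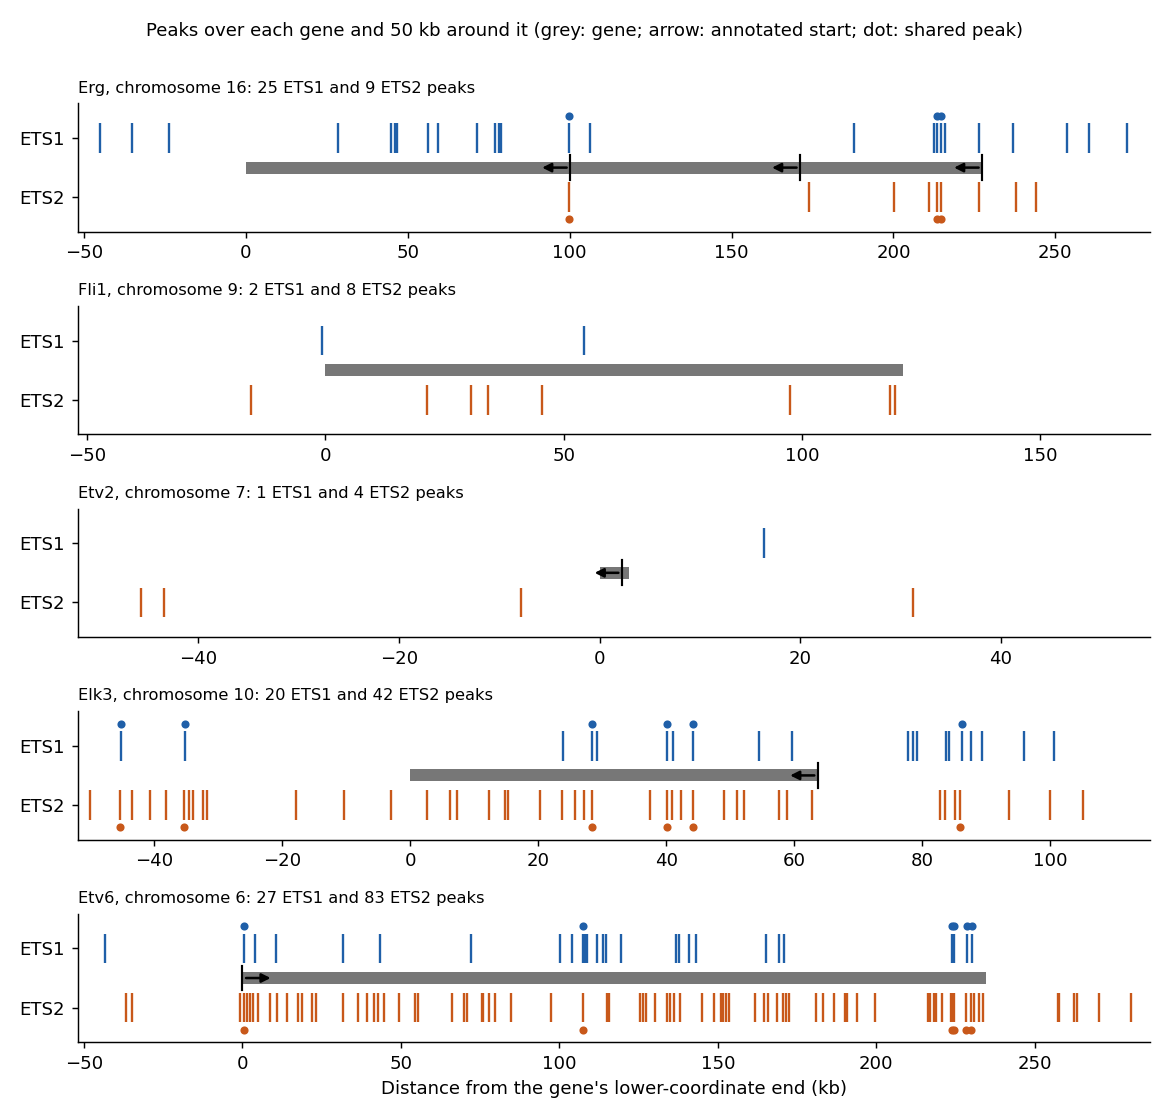
Position of every ETS1 peak (blue, upper row) and ETS2 peak (orange, lower row) over each gene and 50 kb around it, in kb from the lower-coordinate end of the gene. The grey bar is the gene, arrows mark annotated starts and their direction where the promoter table gives them, and dots mark peaks that overlap one of the other list. Erg has 13 ETS1 peaks in a row on the left with no ETS2 peak between them, and Etv6 has 4 overlapping pairs at its far end.

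Erg (chromosome 16, 95359169 to 95586600, minus strand, 227.4 kb), the main ETS factor of resting endothelium, carried 25 ETS1 and 9 ETS2 peaks. The ETS1 density of 7.64 per 100 kb stood beside a median of 4.84 (quartiles 2.43 and 7.78) in 31 genes of like length on chromosome 16, of which 22 were lower. The ETS2 density of 2.75 stood beside a median of 1.68, with 20 of 31 lower. Both values therefore sat in the upper part of the range of their chromosome, but not at its edge. Of the 34 peaks, 73.5% (55.6 to 87.1, exact binomial interval) were ETS1, close to the 69.3% of the chromosome.

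The peaks of Erg fell into separate stretches. From 95314126 to 95438078, which runs from the downstream flank into the 3′ part of the gene, 13 ETS1 peaks followed each other over 124 kb with no ETS2 peak among them. The first pair lay at the innermost start, where an ETS1 peak (95458824 to 95459000) and an ETS2 peak (95458712 to 95458898) overlapped by 75 bp. Beyond it, from 95465414 to 95532964, neither list had a peak. The densest 10 kb came after that, between 95570109 and 95575135, with 4 ETS1 and 3 ETS2 peaks. It lies inside the gene, and its 2 pairs have their ETS1 peaks 12677 and 14017 bp downstream of the outermost start (ETS1 at 95573828 to 95574004 and 95572488 to 95572664, ETS2 at 95573664 to 95573850 and 95572430 to 95572616). These pairs overlapped by 23 and 129 bp. Just inside the outermost start the lists had neighbouring peaks that did not overlap, at 95585333 to 95585509 (ETS1) and 95585581 to 95585767 (ETS2). The median distance from an ETS2 peak of Erg to the nearest ETS1 peak was 871 bp between centres, whereas the median distance from an ETS1 peak to the nearest ETS2 peak was 21536 bp. The window held 25 ETS1 and 9 ETS2 peaks, so these 2 medians need not match. The upstream flank held 4 ETS1 and 2 ETS2 peaks, among them the ETS1 peak nearest the top of its file in this locus (95612691 to 95612867, 26186 bp before the start). In all, 3 of 25 ETS1 peaks (12%, 2.55 to 31.2) were shared, beside 11.6% on the chromosome.

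Fli1 (chromosome 9, 32422204 to 32543432, 121.2 kb), a close relative of Erg, had the reverse balance. The ETS1 list held 2 peaks in its window and the ETS2 list 8. Among 109 genes of like length on chromosome 9, 9 had fewer ETS1 peaks per 100 kb than the 0.904 of Fli1, and their median was 4.77, whereas 66 had fewer ETS2 peaks than its 3.62, beside a median of 2.80. ETS1 made up 20.0% (2.52 to 55.6) of the 10 peaks, against 63.1% on the chromosome. Of 82 such genes with at least 10 peaks, 2 had a smaller ETS1 share, and the median share was 62.8%. The ETS1 interval of 0.110 to 3.27 per 100 kb does not reach that median density of 4.77, but it includes the lower quartile of 2.30. The share of genes of like length with a lower ETS1 density, 8.26% on chromosome 9, was 21.0% over all autosomes and 15.6% with flanks of 10 kb.

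One ETS1 peak of Fli1 lay 774 bp below the lower end of the gene (32421342 to 32421518) and the other inside it (32476388 to 32476564). Of the ETS2 peaks, 7 lay inside the gene, and the one nearest an end was 1687 bp from the upper end (32541652 to 32541838). None was shared, 0 of 2 ETS1 and 0 of 8 ETS2 peaks, which allows a share of up to 84.2% and 36.9% (exact binomial limits). The nearest ETS1 and ETS2 centres were 8836 bp apart. The 50 kb beyond the upper end held no peak of either list. Kcnj1, a potassium channel gene in the lower flank, had no peak within 1 kb of its ends.

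Etv2 (chromosome 7, 30633616 to 30636509, minus strand, 2.89 kb) had no peak of either list over its body. Its window held 1 ETS1 and 4 ETS2 peaks, and each of these 5 lay within 1 kb of an end of another annotated gene. The ETS1 peak (30649937 to 30650113) was 203 bp from an end of Rbm42, an RNA-binding protein gene. ETS2 peaks lay 139 bp from an end of Haus5, of the augmin complex of the spindle (30664762 to 30664948), and 357 bp from an end of Cox6b1, a cytochrome c oxidase subunit (30625664 to 30625850). The remaining ETS2 peaks were 170 and 819 bp from an end of the long non-coding gene Gm32082. One of these also lay 509 bp from an end of Zbtb32, a zinc finger gene, and the other 1096 bp from an end of Kmt2b, a histone methyltransferase gene. Upk1a, a uroplakin gene, had no peak nearer than 12903 bp. The window of Etv2 is rich in genes, with 6 other protein-coding genes in it, and how often peaks elsewhere lie so near an end was not tested. For a gene of this size on chromosome 7 these numbers were ordinary: of 221 genes of like length, 99 had a lower ETS1 density (76 of them had 0 peaks) and 128 a lower ETS2 density (61 had 0).

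Elk3 (chromosome 10, 93247415 to 93311159, minus strand, 63.7 kb) carried 20 ETS1 and 42 ETS2 peaks. With flanks of 50 kb its densities were the highest of the 5, but with flanks of 10 kb Etv6 was above it, at 10.2 against 9.55 ETS1 and 29.5 against 27.5 ETS2 peaks per 100 kb. Elk3 was also below Etv6 in ETS2 peaks when the first 50% of the file order alone was counted, at 9.16 against 12.6. Without flanks Elk3 was above Etv6, at 12.55 against 11.09 ETS1 and 34.51 against 31.56 ETS2 peaks per 100 kb. With flanks of 100 kb Elk3 was again above, at 10.62 against 6.675 and 21.23 against 20.95. Its ETS2 density of 25.6 per 100 kb was 3.28 times the median of 7.82 for 131 genes of like length on chromosome 10. Of these, 127 were lower and 4 were at least as dense. The ETS1 density of 12.2 stood beside a median of 7.44, with 112 of 131 lower. ETS1 made up 32.3% (20.9 to 45.3) of the 62 peaks, beside 46.4% on the chromosome, and 13 of 119 such genes with at least 10 peaks had a smaller share.

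Both lists covered Elk3 unevenly and in different places. By peak centre, the ETS1 list had 2 peaks downstream, 8 in the gene and 10 upstream, or 4, 12.5 and 20 per 100 kb. The ETS2 list had 12, 22 and 7, or 24, 34.5 and 14 per 100 kb, and 1 more touched the edge of the window. ETS1 peaks were missing over 59.0 kb from 93212218 to 93271224, which covers the 3′ part of the gene and much of the flank beyond it, where the ETS2 list had 15 peaks. The neighbouring gene Cdk17 (93160876 to 93251094) spans the whole downstream flank. The peaks counted downstream, and part of this bare stretch, therefore lie inside Cdk17. Of the ETS1 peaks 6 of 20 (30%, 11.9 to 54.3) were shared, beside 22.6% on the chromosome. The widest overlap, 169 bp, joined 93275751 to 93275927 (ETS1) and 93275733 to 93275919 (ETS2), 35320 bp downstream of the start. That ETS1 peak was also the one nearest the top of its file, with 4.88% of the list in higher steps of the file order. Upstream of the start, 11 peaks (7 ETS1 and 4 ETS2) lay in 10.1 kb from 93325104 to 93335206.

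An ETS2 peak inside Elk3 (93284871 to 93285057) covered the start of Gm32551, a long non-coding RNA gene on the opposite strand, at 93284973. It was the ETS2 peak of this locus nearest the top of the file, with 5.56% of the list in higher steps. The promoter table holds the part of this peak that lies before that start, which is printed because it is the only place in the 5 loci where a peak covered a start in that table. It has 1 GGAA core in its 102 bases, in capitals. The other stretch under a peak that the table holds, 94 bases before the start of the long non-coding gene Gm52920 inside Etv6, had 0.
Gm32551 start, under an ETS2 peak, chr10:93284871-93284972, plus strand: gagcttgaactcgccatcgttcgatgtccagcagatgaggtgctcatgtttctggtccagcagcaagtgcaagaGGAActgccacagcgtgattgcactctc

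Etv6 (chromosome 6, 134035700 to 134270158, plus strand, 234.5 kb) carried 27 ETS1 and 83 ETS2 peaks. Its ETS1 density of 8.07 per 100 kb was above 40 of 54 genes of like length on chromosome 6, whose median was 4.38. The ETS2 density of 24.8 was above 43 of the 54, whose median was 17.2. The ETS2 densities of these 54 genes ran from 0.360 to 59.0. On this chromosome, which held 24.4% of the ETS2 list, 24.5% (16.8 to 33.7) of the peaks of Etv6 were ETS1, as were 25% of those of the chromosome. Against genes of like length on all autosomes, in contrast, its ETS2 density was above 98.8%.

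Peaks followed the body of Etv6. The gene itself held 26 of the 27 ETS1 peaks, or 11.1 per 100 kb, and 74 of the 83 ETS2 peaks, or 31.6 per 100 kb. The upstream 50 kb held 1 and 3, and the downstream 50 kb 0 and 6. At the start an ETS1 peak (134036077 to 134036253) lay wholly within an ETS2 peak (134036074 to 134036260). A further ETS2 peak stood 659 bp before the start (134034948 to 134035134) and 271 bp from an end of the neighbouring predicted gene Gm46977. In the middle of the gene, 107.5 kb from the start, a pair overlapped by 161 bp (134143062 to 134143238 and 134143078 to 134143264).

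The far end of Etv6 held the densest 10 kb of the locus, with 4 ETS1 and 7 ETS2 peaks between 134259203 and 134268060. From 134206760 to 134259572 the ETS1 list had no peak over 52.8 kb, while the ETS2 list had 15. Directly after, 4 of the 6 pairs followed within the last stretch of the gene, the first at 134259573 to 134259749 (ETS1) and 134259578 to 134259764 (ETS2), and the last with ETS1 at 134265700 to 134265876. In this order the 4 pairs overlapped by 172, 63, 16 and 7 bp. The second of them has the ETS2 peak nearest the top of its file among all 5 loci (134260069 to 134260255), with 2.17% of the list in higher steps. Its ETS1 partner (134260193 to 134260369) has 89.5% of its list in higher steps. Of the ETS1 peaks of Etv6, 6 of 27 (22.2%, 8.62 to 42.3) were shared, beside 33.1% on chromosome 6, and of the ETS2 peaks 7.23% (2.70 to 15.1), beside 11.0%. A further 7 ETS1 peaks had an ETS2 centre within 500 bp without overlap. Where an overlap of at least 50% of the ETS1 peak was required, 11.1% of the ETS1 peaks of Etv6 were shared. The same rule gave 4% at Erg and 25% at Elk3.

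**Figure D3:**
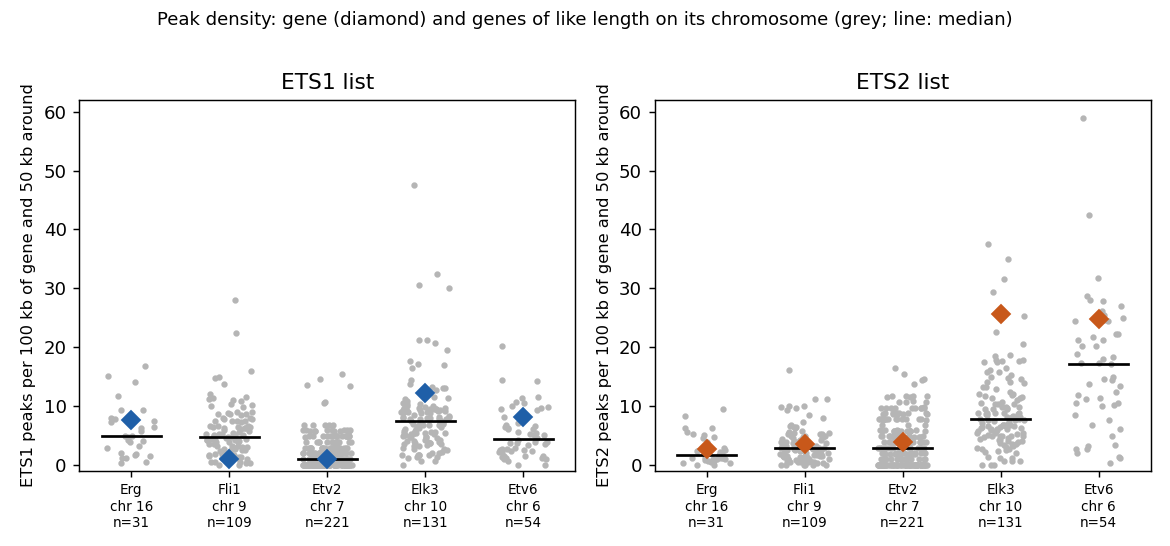
Peaks per 100 kb of the gene and 50 kb around it for each of the 5 genes (diamond) and for every protein-coding gene of like length on its chromosome (grey points, n given; black line, median), ETS1 on the left and ETS2 on the right. Fli1 lies near the bottom of its ETS1 points, with 9 of 109 lower, and Elk3 near the top of its ETS2 points, with 127 of 131 lower.

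The deposited files hold no tag count per peak, and their headers do not say what the order of the peaks stands for. Read from the top, each file runs through chromosome 1 to the last and up each of them, then begins again, in at least 224 such steps for ETS1 and 127 for ETS2. Peaks within a step were treated as ties, except where the first 50% of a file was cut by row. A peak is described by the share of its list in higher steps. The median of that share was 38.6% for Erg, 84.8% for Fli1, 52.6% for Etv2, 38.6% for Elk3 and 72.4% for Etv6 in the ETS1 list. In the ETS2 list it was 28.9%, 62.6%, 50.5%, 53.1% and 39.0% in the same order of genes. Both ETS1 peaks of Fli1 stood low, with 72.4% and 97.3% of the list above them. Its ETS2 peak nearest the top (32443344 to 32443530, inside the gene) had 9.15% above it. The Erg peak nearest its outermost start (ETS2, 95585581 to 95585767) also had 9.15% above it.

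**Figure D4:**
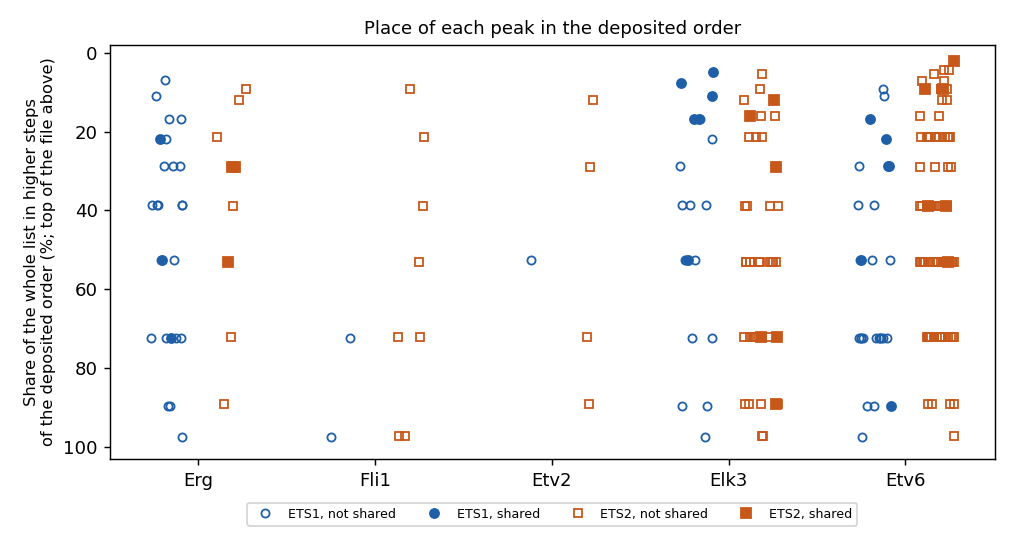
Place of each peak of the 5 loci in its file, as the share of the whole list in higher steps (%, top of the file above), ETS1 as circles and ETS2 as squares, with shared peaks filled. Points on one horizontal level belong to one step. Both ETS1 peaks of Fli1 lie low, at 72.4% and 97.3%, and an Etv6 ETS2 peak is the highest point, at 2.17%.

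For each gene the 2 genes of like length on its chromosome with the nearest numbers of peaks were taken, by the summed difference over the 2 libraries. For Erg these were Vps8, of an endosomal tethering complex (25 ETS1 and 7 ETS2 peaks), and Gsk3b, a serine/threonine kinase gene (24 and 10). For Fli1 they were Arhgap20 (2 and 6) and Bmp5, a bone morphogenetic protein (3 and 7), and for Etv2 both Coa4 and Zfp768, each with 1 and 4. Etv6 was nearest to Tbxas1, the thromboxane synthase gene (26 and 84), and Chchd3, a mitochondrial cristae gene (26 and 80). Elk3 had no close match: Cdk17, a cyclin-dependent kinase gene (13 and 43), overlaps the 3′ end of Elk3 and shares peaks with it, and Foxo3, a forkhead factor gene (24 and 32), differed by 14 peaks.

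Other genes around these factors were counted in the same way. Each count or median is read, without a match for chromosome or gene length, against all protein-coding genes. Of those, 78.8% (ETS1) and 77.8% (ETS2) had a peak over gene and flanks, 39.4% and 40.0% had one within 1 kb of an end, and 6275 of 21887 had an end peak in both lists. Of 19 further regulators of endothelial specification, 17 had an ETS1 and 17 an ETS2 peak over gene and flanks, 7 and 8 had an end peak, near the share of all genes, and 5 had one in both lists. Their median density was 5.50 (ETS1) and 3.80 (ETS2) peaks per 100 kb, beside 3.17 and 2.79 over all protein-coding genes and 7.64 and 3.89 over the 5 genes. The range of densities was wide. Lyl1, a basic helix-loop-helix factor of blood and endothelium, had the highest, 43.6 and 25.2 per 100 kb, from 45 and 26 peaks. Cdx4 on the X chromosome had 0 in both lists, where the whole chromosome had 95 and 40. Of 22 endothelial genes known as targets of ERG, FLI1 or ETV2, 19 had an ETS1 and 19 an ETS2 peak over gene and flanks. An end carried an ETS1 peak at 8 of them and an ETS2 peak at 6, with 1 gene in both, and the medians were 2.58 and 2.39 per 100 kb. Eng, the endoglin gene, had the highest density, 25.7 and 22.1 per 100 kb, from 35 and 30 peaks. Apln, which encodes the ligand of the apelin receptor and is X-linked, had 0. All 10 partners and targets of the repressors ELK3 and ETV6 had a peak in each list, with an end peak at 7 and 8, in both lists at 6, and medians of 9.52 and 4.2. Egr1, an immediate early gene with serum response elements, had 14 and 9, and Mmp3, a stromelysin, 1 and 2.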

How the data were processed

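Positions of ChIP-seq peaks were analysed in 1 library per antibody. The tools that the submitters' processing notes name are CASAVA 1.8, Bowtie2 and HOMER, with mm9 as well as mm10 among the builds. HOMER findPeaks ran in factor style on tag directories named for mm10, per the file headers, at a false discovery rate of 0.01, with its F, L and P filter options at 0 and no control directory in the command. Coordinates were read as mm10 and are given 1-based. The deposited score column holds the constant 1 in every row, so this score was not used. Peaks have 1 width, 177 bp (ETS1) and 187 bp (ETS2), except 1 in each list.

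Gene spans and promoter sequences came from RefSeq tables of GRCm38.p6. A peak belonged to a locus when it overlapped the gene or the 50 kb on either side by at least 1 bp, and distances run from peak centres. Genes of like length are protein-coding, on the same chromosome and within 1.5 times the length. Exons, and bases under peaks beyond the promoter table, were not used here. No test was run: counts carry exact Poisson and shares exact binomial (Clopper-Pearson) intervals. Counting functions were tested on simulated data (Python 3.11.15, pandas 2.3.3, scipy 1.17.1). Genes named are the 5 members, protein-coding genes in their windows and the 2 nearest in peak numbers. From each gene list, the genes with most and with fewest peaks of both libraries together per 100 kb were also named. Gm32551, Gm32082, Gm52920 and Gm46977 were chosen after their values were seen, as were the stretches described, the file-order steps and the peaks singled out. The members, lists and alternatives were chosen with earlier results of these data known.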

Additional observations from a re-analysis of the deposited data

How the results depend on the processing

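Of 143 recomputed values for 27 results, 104 stayed within the interval of the value reported (or, for counts, within 1.5 times) and 39 moved. With the first 50% of each file's order alone, ETS1 densities fell to 2.749 peaks per 100 kb (Erg), 6.718 (Elk3), 2.691 (Etv6) and 0 (Fli1 and Etv2), and ETS2 densities to 1.356 (Fli1), 9.161 (Elk3) and 12.56 (Etv6), since fewer peaks enter. The cut was made by row and fell inside a step, whose later chromosomes were left out. Of the 25 ETS1 peaks of Erg, 14 had less than 50% of the list in higher steps, but not all of these were counted. With this cut, the share of genes of like length with a lower ETS1 density was 0% for Fli1 and Etv2 and 59.26% for Etv6, and with a lower ETS2 density 47.71% for Fli1 and 90.08% for Elk3. Without flanks, Etv2 had 0 in density and in that share for both lists, Etv6 had an ETS2 density of 31.56, and the shares were 87.04% (ETS1) and 92.59% (ETS2) for Etv6 and 88.07% (ETS2) for Fli1. With flanks of 10 kb, Etv2 had 0 in ETS1 density and share and an ETS2 share of 65.61%. The ETS1 shares were 15.6% (Fli1), 64.89% (Elk3) and 85.19% (Etv6), and the ETS2 shares 84.4% (Fli1) and 90.74% (Etv6). Against all autosomes the ETS1 shares were 21.01% (Fli1), 28.14% (Etv2) and 85.71% (Etv6), and the ETS2 share 98.76% (Etv6). With a narrower range of lengths (the alternative in place of 1.5 times), they were 35.78% (Etv2, ETS1) and 100% (Elk3, ETS2). Counting centres within 500 bp as shared raised the Etv6 share of ETS1 peaks to 48.15%. Members with a peak at a gene end numbered 1 in each list within 500 bp, and 1 for ETS1 with the first 50% of the order. The cause of these shifts was not tested beyond the smaller or larger sets that each choice brings. No share of overlapping peaks could be computed where no ETS1 peak was left (Fli1 and Etv2 in the first 50%, Etv2 without flanks). The ETS1 values of Fli1 and Etv2 rest on 2 and 1 peaks and have wide intervals.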
